A study of Schizosaccharomyces pombe with 21 samples.

Results

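Fission yeast, Schizosaccharomyces pombe, takes up phosphate with a small set of genes, and 4 of them are described here: pho1 (SPBP4G3.02), pho84 (SPBC8E4.01c), tgp1 (SPBC1271.09) and pho842 (SPAC23D3.12). They were chosen by name, as the cell-surface acid phosphatase, the inorganic phosphate transporters and the glycerophosphodiester transporter, from 6988 gene identifiers in the count tables. All 4 are protein-coding and all 4 passed the filter on low counts. Per the annotation, pho1, pho84 and tgp1 lie on chromosome II and pho842 on chromosome I.

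Pho1 frees phosphate from organic esters outside the cell, Pho84 and Pho842 carry inorganic phosphate inward, and Tgp1 imports glycerophosphodiesters. In replete cells, long non-coding RNAs transcribed toward pho1, pho84 and tgp1 are known to interfere with their mRNA synthesis, and the transcription factor Pho7 drives the genes when phosphate runs out. Inositol pyrophosphates, small signalling molecules made by the kinase Asp1 and broken down by several pyrophosphatases, are known to act on the termination of those non-coding RNAs.

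PolyA RNA was sequenced from 21 libraries in 7 groups of 3 biological replicates, all from vegetative cultures grown at 30 °C and labelled with mating type h-. The wild type (strain Sp1) was sampled at 0 h in replete medium, ePMGT(+PO4), and after 1, 2 and 4 h in ePMGT(-PO4), which lacks phosphate. HASX (strain BS1453) was sampled after 1, 2 and 4 h without phosphate. It carries the allele asp1-H397A, marked with natMX, together with deletions of aps1 (kanMX), siw14 (hygMX) and spx1 (ura4MX), and is used to block the breakdown of inositol pyrophosphates. Each genotype is 1 strain, and the groups analysed hold neither HASX at 0 h nor a mock transfer to fresh replete medium. A difference between the genotypes at 1 h can therefore not be told apart from one already present before the transfer.

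Library totals ran from 11.2 M to 23.7 M counts, and a count of any of the 4 genes in a library lay between 930 and 651466. In a check of the labels, aps1 fell from means of 159 to 186 CPM in the wild type to 3.34 to 8.43 CPM in HASX. From low to high, the HASX 4 h libraries had 4.04, 5.99 and 15.3 CPM of aps1. The mutated asp1 had means of 54.8 to 86.4 CPM in the wild type and 89.3 to 158 CPM in HASX. Its HASX 4 h libraries were at 83.4, 83.5 and 306 CPM. Without HASX 4 h replicate 3, the log2 difference of asp1 from the wild type at 4 h was -0.02. CPM (counts per 1 M counts) use TMM-scaled library sizes. The spx1 gene, named pqr1 in the annotation, fell from means of 278 to 320 CPM to 45.6 to 83.8 CPM. The deleted siw14 stood at 0.57 to 3.72 CPM in 8 of the 9 HASX libraries but at 69.6 CPM in the library labelled HASX 4 h replicate 3, against 98.6 to 257 CPM in the wild type. Over all genes that library correlated with its replicates at r = 0.893 and 0.896, while replicates of the other 6 groups correlated at 0.983 to 0.996. Fold changes at HASX 4 h are therefore followed by their values without it. All 21 libraries share 1 fit, so leaving it out also changed calls over all genes in comparisons that do not hold it. In the wild type at 1 h against 0 h, 266 genes called higher and 313 lower became 372 and 686. The shares of all genes given here come from the fit with it. Both strains are labelled h-, yet of 5 genes of M cells 2 were lower in HASX than in the wild type at 1 h, 4 at 2 h and 5 at 4 h (also without that library). Over all genes tested, 37.8%, 39.3% and 37.3% were called lower in HASX at 1, 2 and 4 h. The pheromone gene mfm2 had means of 167 to 464 CPM in the wild type and 3.10 to 4.51 CPM in HASX, whereas at 1 h mam1 was at 65.9 and 65.7 CPM and mfm3 at 1.52 and 1.65 CPM. Both P-cell genes were higher in HASX at 1 h, where 36.4% of all genes were called higher. There map3 was at 38.4 against 14.9 CPM and map2 at 7.36 against 2.77 CPM. Neither was called at 2 h (log2 0.22 and 0.80, adjusted p = 0.228 and 0.124). Without HASX 4 h replicate 3, map2 was higher at 4 h (log2 1.67) and map3 lower (-0.43, adjusted p = 0.0243). The strains also differed in ura4, the gene named in the ura4MX marker. It was at 0 CPM in every wild-type library and had means of 745, 863 and 677 CPM in HASX at 1, 2 and 4 h. The HASX 4 h libraries ranged from 640 to 731 CPM of ura4. The part of these strain differences, ura4 included, in the results below was not tested.

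The secreted acid phosphatase gene pho1 had the highest level of all genes tested in the wild type at 4 h and in HASX at 2 h and 4 h. In the wild type it was at 1051, 1285 and 1323 CPM at 0 h, at 4851, 5381 and 4601 CPM at 1 h, at 10138, 8688 and 7452 CPM at 2 h and at 17713, 19158 and 18508 CPM at 4 h. In HASX it was at 23423, 29797 and 31114 CPM at 1 h, at 32584, 32914 and 33341 CPM at 2 h, and at 51597, 46325 and 42550 CPM at 4 h. The 7 groups lined up in that order with no overlap between neighbours, so that the lowest HASX library at 1 h lay above every wild-type library at 4 h. Among the 6234 genes tested, pho1 ranked 135 by mean CPM in the wild type at 0 h, 8 at 1 h, 2 at 2 h and 1 at 4 h. In HASX it ranked 2 at 1 h and 1 at both later times, and it ranked 1 in each of the 3 HASX libraries at 4 h. Compared with the time-matched wild type, pho1 was higher in HASX 5.69-fold at 1 h (log2 fold change 2.51, SE 0.14, adjusted p = 4.19e-12), 3.76-fold at 2 h (1.91, SE 0.14, adjusted p = 1.76e-10) and 2.54-fold at 4 h (1.34, SE 0.14, adjusted p = 3.82e-08). Without the library labelled HASX 4 h replicate 3, the log2 difference at 4 h was 1.44 (adjusted p = 1.65e-08).

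The glycerophosphodiester transporter gene tgp1 covered the widest range of the 4. Its wild-type levels were 47.6, 49.9 and 63.9 CPM at 0 h, 250, 282 and 239 CPM at 1 h, 499, 477 and 384 CPM at 2 h, and 977, 1016 and 1020 CPM at 4 h. In HASX the levels were 3409, 4396 and 4397 CPM at 1 h, 2561, 2762 and 2493 CPM at 2 h, and 4650, 3825 and 3375 CPM at 4 h. Every HASX library was above every wild-type library. HASX at 1 h and at 4 h overlapped, and both lay above HASX at 2 h. The HASX to wild-type ratio was 15.8-fold at 1 h (log2 3.98, SE 0.15, adjusted p = 1.36e-14), 5.74-fold at 2 h (2.52, SE 0.15, adjusted p = 4.46e-12) and 3.93-fold at 4 h (1.98, SE 0.14, adjusted p = 2.31e-10). Without the library labelled HASX 4 h replicate 3, the last was 2.11 on the log2 scale (adjusted p = 6.74e-12).

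The transporter gene pho84, next to pho1 in the annotation with a non-coding RNA between them, showed a smaller range. Its wild-type levels were 1120, 1386 and 1526 CPM at 0 h, 2904, 3099 and 2768 CPM at 1 h, 5596, 4643 and 4409 CPM at 2 h, and 6516, 6659 and 6718 CPM at 4 h. In HASX they were 5162, 6528 and 6586 CPM at 1 h, 6483, 6792 and 6445 CPM at 2 h, and 13295, 12034 and 10496 CPM at 4 h. HASX at 1 h, HASX at 2 h and the wild type at 4 h overlapped, and HASX at 4 h lay above all other groups. HASX at 1 h also overlapped the wild type at 2 h. Against the time-matched wild type, pho84 was higher in HASX 2.08-fold at 1 h (log2 1.06, SE 0.13, adjusted p = 3.75e-07), 1.35-fold at 2 h (0.43, SE 0.13, adjusted p = 0.00498) and 1.80-fold at 4 h (0.85, SE 0.13, adjusted p = 7.39e-06). Without the library labelled HASX 4 h replicate 3, the log2 value at 4 h was 0.97 (adjusted p = 5.78e-07).

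The other transporter gene of the set, pho842, had its wild-type increase mostly within the first hour. It was at 314, 317 and 354 CPM at 0 h, 998, 1067 and 1024 CPM at 1 h, 1082, 927 and 882 CPM at 2 h, and 1343, 1365 and 1385 CPM at 4 h. In HASX it was at 1918, 1757 and 1329 CPM at 1 h, 1866, 1869 and 1571 CPM at 2 h, and 4925, 4321 and 3796 CPM at 4 h. The wild type at 1 h and 2 h overlapped, as did the wild type at 4 h with HASX at 1 h, and HASX at 1 h with HASX at 2 h. Within HASX at 1 h, replicate 1 was the highest of the 3 for pho842 and the lowest of the 3 for pho1, pho84 and tgp1. The HASX to wild-type ratio was 1.62-fold at 1 h (log2 0.70, SE 0.13, adjusted p = 5.18e-05), 1.84-fold at 2 h (0.88, SE 0.13, adjusted p = 2.98e-06) and 3.19-fold at 4 h (1.67, SE 0.13, adjusted p = 6.06e-10). Without the library labelled HASX 4 h replicate 3, the log2 value at 4 h was 1.79 (adjusted p = 2.94e-11).

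**Figure D1:**
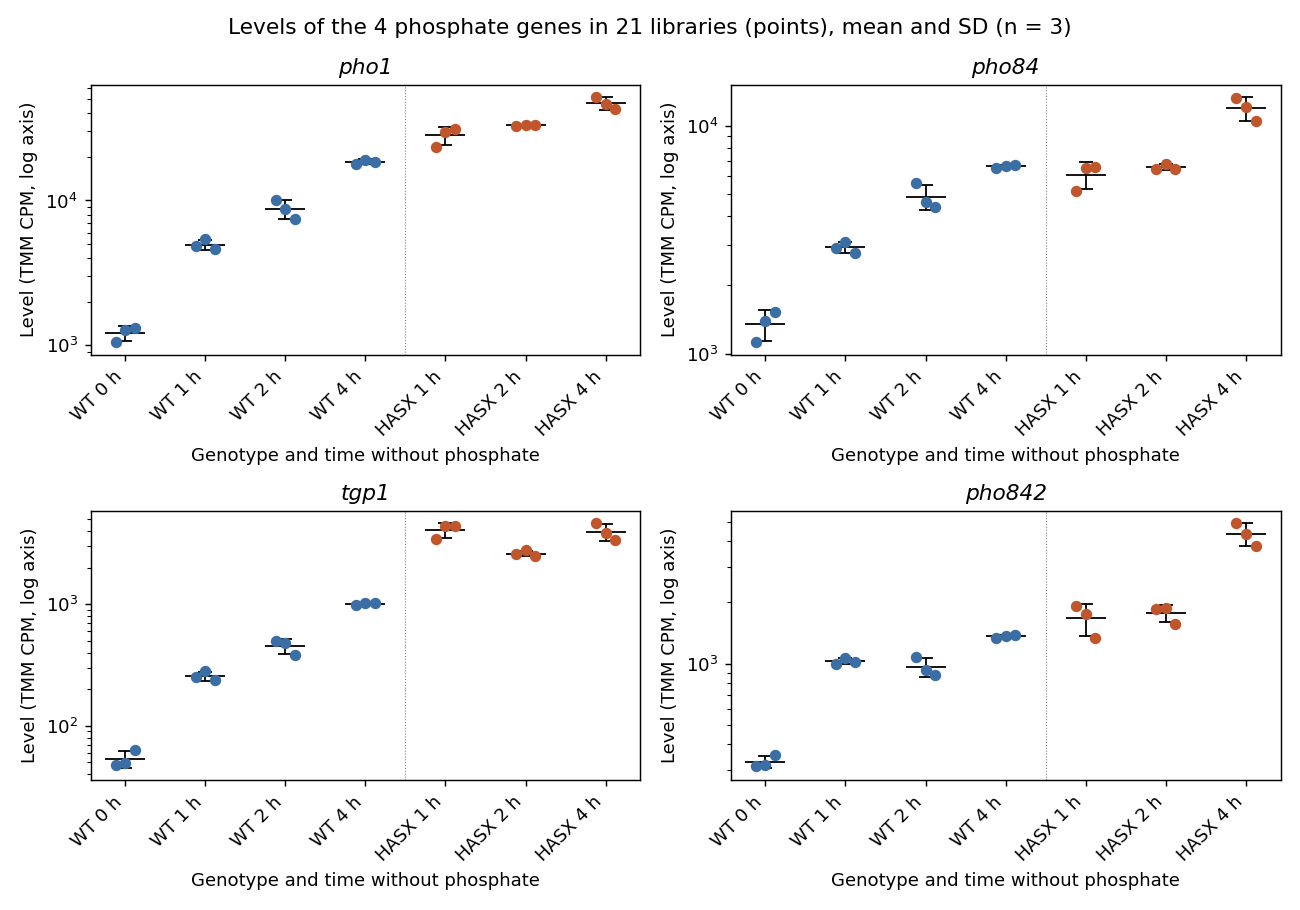
Level of each of the 4 genes in every library (points, TMM-scaled CPM on a log axis), with the mean and SD of 3 replicates as bars; blue is the wild type and orange is HASX. For pho1 and tgp1 every HASX library is above every wild-type library, while pho84 in HASX at 1 h and 2 h overlaps the wild type at 4 h. In HASX at 1 h pho84 also overlaps the wild type at 2 h.

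In the wild type, all 4 genes were higher than at 0 h at each time without phosphate, and 10.9% of all tested genes were called higher at 2 h. The log2 fold changes at 1 h were 2.26 for tgp1, 2.02 for pho1, 1.65 for pho842 and 1.12 for pho84. The share of all tested genes called higher at 1 h was 4.27%. At 4 h the values were 4.22 for tgp1, 3.92 for pho1, 2.30 for pho84 and 2.05 for pho842, where 26.5% of all genes were called higher. Between 1 h and 2 h, 3 of the 4 rose (5.73% of all genes): tgp1 and pho1 by a log2 fold change of 0.82 each and pho84 by 0.74. The gene pho842 had a value of -0.10 in that step (adjusted p = 0.712, 95% interval -0.36 to 0.17). From 2 h to 4 h all 4 rose (14.4% of all genes), pho1 with a log2 fold change of 1.08, tgp1 with 1.15, pho842 with 0.50 and pho84 with 0.44 (adjusted p = 0.0131). The pho84 call was lost when wild-type 2 h replicate 2 was left out, at a value of 0.41 (adjusted p = 0.058), or replicate 3, at 0.37 (adjusted p = 0.0616). The 3 comparisons with 0 h share their control libraries. Levels are shares of the RNA in a culture, so that more RNA per cell and more cells expressing a gene cannot be told apart.

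All 4 genes were higher in HASX than in the wild type at 1 h, 2 h and 4 h, with no overlap between the 3 libraries of either genotype. The share of all genes with no such overlap was not computed, so the separation cannot be set against a background. The background is large: 36.4% of all tested genes were called higher at 1 h, 37.5% at 2 h and 38.3% at 4 h, so a call in this comparison is common. By size of the log2 fold change at 1 h, tgp1 ranked 215 among the 6234 genes, pho1 ranked 582, pho84 ranked 1484 and pho842 ranked 1927. At 4 h the order was tgp1 at rank 851, pho842 at 1030, pho1 at 1261 and pho84 at 1770. Without HASX 4 h replicate 3 the ranks were 549, 727, 950 and 1419 of 6252 genes. The median log2 fold change of the 4 genes was 1.78 at 1 h, 1.39 at 2 h and 1.51 at 4 h, beside medians of -0.01, -0.01 and 0.05 over all genes. Without HASX 4 h replicate 3 the medians at 4 h were 1.62 and -0.02. Scaling by library totals instead of TMM moved the median of all genes at 4 h by -0.48, and under it 1598 genes were higher and 3173 lower in place of 2389 and 2323. The 4 genes kept their calls at 4 h, with log2 values of 0.86 for pho1, 0.36 for pho84, 1.49 for tgp1 and 1.18 for pho842.

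**Figure D2:**
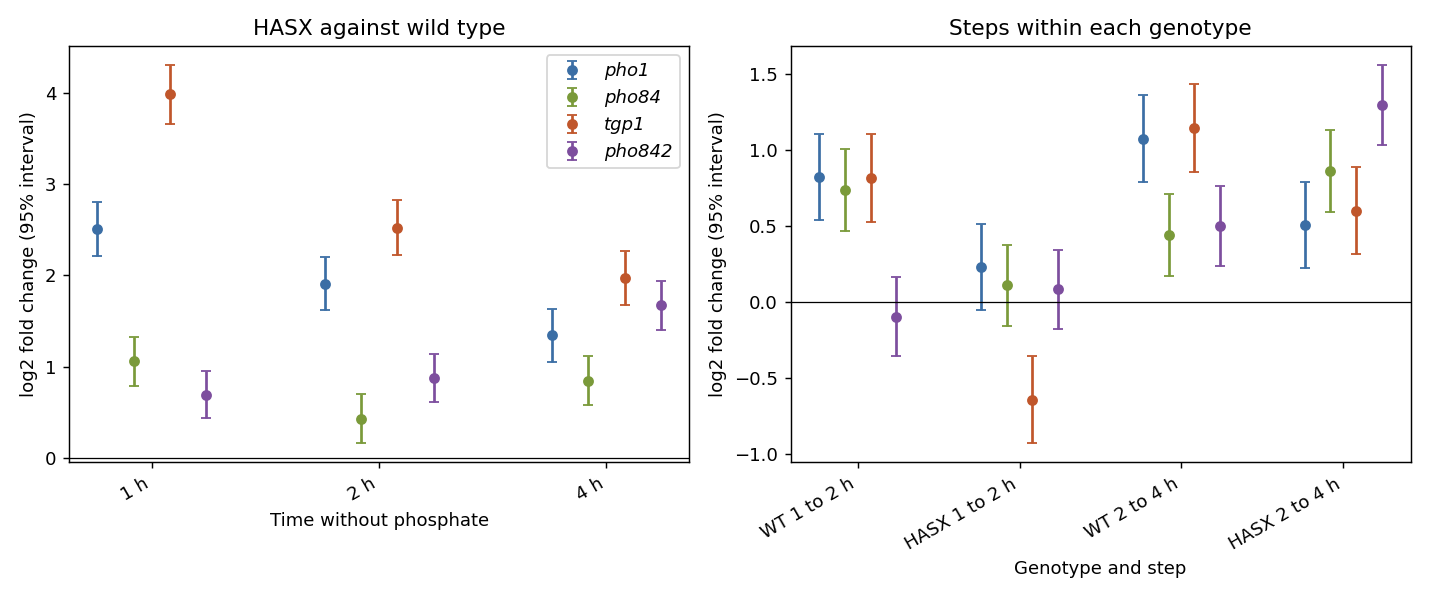
Log2 fold changes of the 4 genes with 95% intervals, on the left for HASX against the wild type at 1, 2 and 4 h and on the right for the steps from 1 to 2 h and from 2 to 4 h within each genotype. The excess in HASX is smaller at 4 h than at 1 h for pho1 and tgp1 and larger for pho842, and tgp1 fell from 1 to 2 h in HASX.

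The steps within HASX differed from gene to gene. Between 1 h and 2 h tgp1 fell (log2 fold change -0.64, SE 0.14, adjusted p = 0.00162), the 1 of the 4 called lower, where 16.9% of all genes were. In the same step pho1 had a value of 0.23 (adjusted p = 0.208) without overlap of its libraries, and 14.7% of all genes were called higher. The transporters pho84 (0.11, adjusted p = 0.553) and pho842 (0.08, adjusted p = 0.649) overlapped between 1 h and 2 h. From 2 h to 4 h all 4 rose, where 23.0% of all genes did. The largest of these steps was that of pho842 (1.30, adjusted p = 9.53e-07), followed by pho84 (0.86, adjusted p = 8.69e-05), tgp1 (0.60, adjusted p = 0.00269) and pho1 (0.51, adjusted p = 0.00737). Without the library labelled HASX 4 h replicate 3 these steps were 1.41, 0.97, 0.72 and 0.59. Under library totals, which moved the median of all genes in this step by -0.29, they were 1.00, 0.56, 0.30 and 0.21 and all passed the test, while the counts over all genes went from 1431 higher and 1003 lower to 764 and 2363.

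The difference between the genotypes' steps was tested directly, as an interaction of genotype and time. From 1 h to 2 h the step was smaller in HASX than in the wild type for 3 of the 4 genes, where 17.8% of all genes had a lower and 11.5% a higher interaction. It was -1.46 for tgp1 (SE 0.20, adjusted p = 2.94e-05), -0.63 for pho84 (SE 0.18, adjusted p = 0.014) and -0.60 for pho1 (SE 0.19, adjusted p = 0.0253). The pho842 value was 0.18 (95% interval -0.19 to 0.55, adjusted p = 0.461). The pho1 call was lost without wild-type 1 h replicate 1 (-0.58, adjusted p = 0.0527) or 3 (-0.55, adjusted p = 0.0673), wild-type 2 h replicate 1 (-0.48, adjusted p = 0.0816), or HASX 1 h replicate 2 (-0.55, adjusted p = 0.0598) or 3 (-0.52, adjusted p = 0.0686).

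From 2 h to 4 h the interaction was higher for pho842 (0.80, SE 0.18, adjusted p = 0.002), where 17.9% of all genes were, and lower for pho1 (-0.57, SE 0.19, adjusted p = 0.0292) and tgp1 (-0.55, SE 0.19, adjusted p = 0.038), where 13.1% were. For pho84 it was 0.42 (95% interval 0.04 to 0.80, adjusted p = 0.0838). Without the library labelled HASX 4 h replicate 3 it was 0.88 for pho842, -0.51 for pho1 (adjusted p = 0.0498), -0.45 for tgp1 (adjusted p = 0.0499) and 0.50 for pho84, which then passed (adjusted p = 0.0237). The pho84 value also passed without wild-type 2 h replicate 3 (0.49, adjusted p = 0.0497). The pho1 call was lost without wild-type 2 h replicate 2 (-0.56, adjusted p = 0.0561) or 3 (-0.46, adjusted p = 0.0634), or wild-type 4 h replicate 2 (-0.54, adjusted p = 0.0627) or 3 (-0.57, adjusted p = 0.0541). The tgp1 call was lost without wild-type 2 h replicate 3, any single wild-type 4 h replicate, or HASX 2 h replicate 1 or 2, with values from -0.56 to -0.44. Under library totals, where the median of all genes moved by -0.42, the values were -1.01 for pho1, -0.99 for tgp1, -0.02 for pho84 and 0.36 for pho842 (adjusted p = 0.0813).

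HASX at 1 h was also set against the wild type at 4 h, the most induced wild-type group for all 4 genes. Here tgp1 was 4.05-fold higher in HASX (log2 2.02, SE 0.14, adjusted p = 2.35e-10) and pho1 1.52-fold higher (0.61, SE 0.14, adjusted p = 0.000546), where 33.4% of all genes were called higher. The pho84 value was -0.12 (95% interval -0.39 to 0.14, adjusted p = 0.405), and under library totals pho84 was lower in HASX (-0.27, adjusted p = 0.00146). The pho842 value was 0.29 (adjusted p = 0.0459) with overlapping libraries. Its call was lost without any single wild-type 4 h replicate, and was also lost without HASX 1 h replicate 1, at 0.20 (adjusted p = 0.174), and without replicate 2, at 0.25 (adjusted p = 0.129). Against replete wild-type cells, HASX at 1 h was 75.6-fold higher for tgp1 (log2 6.24, SE 0.17), higher by 4.53 on the log2 scale for pho1 (SE 0.16), 5.08-fold for pho842 (2.34, SE 0.13) and 4.53-fold for pho84 (2.18, SE 0.13). In that comparison 35.3% of all genes were called higher, and genotype and medium differ together.

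To compare levels between genes, CPM were divided by coding length, which is 1362 bases for pho1, 1719 for pho84, 1587 for tgp1 and 1680 for pho842. In replete wild-type cells the means were 896 CPM per kb for pho1, 782 for pho84, 196 for pho842 and 33.9 for tgp1. At 4 h in the wild type the order was the same, with 13553, 3858, 812 and 633 CPM per kb. In HASX at 1 h tgp1 stood at 2563 CPM per kb, above pho842 at 993, and at 4 h the 2 were at 2489 ± 407 and 2588 ± 336 (SD, n = 3). The HASX 4 h replicates 1 and 2 alone had 2930 and 2410 CPM per kb for tgp1 and 2932 and 2572 for pho842. The 4 genes together took up 0.315% ± 0.017 of all counts in replete wild-type cells and 3.03% ± 0.06 at 4 h, against 3.99% ± 0.29, 4.26% ± 0.08 and 5.29% ± 0.24 in HASX at 1, 2 and 4 h (SD, n = 3 each). The shares in HASX 4 h replicates 1 and 2 were 5.51% and 5.34%.

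Ratios between the genes within a library need no scaling between libraries, and all 6 pairs were computed. The ratio of pho1 to tgp1 per kb was 26.6 ± 3.0 in replete wild-type cells and 22.4 ± 0.2, 22.5 ± 1.2 and 21.4 ± 0.5 at 1, 2 and 4 h without phosphate. In HASX it was 8.05 ± 0.18 at 1 h, 14.8 ± 0.8 at 2 h and 13.9 ± 0.9 at 4 h (SD, n = 3), below every wild-type library. The ratio of pho1 to pho84 climbed in the wild type from 1.15 ± 0.05 at 0 h to 3.51 ± 0.10 at 4 h, and was 5.82 ± 0.13, 6.33 ± 0.21 and 4.96 ± 0.14 in HASX. The ratio of tgp1 to pho842 was 0.173 ± 0.016 at 0 h and 0.779 ± 0.009 at 4 h in the wild type. In HASX it was 2.68 ± 0.81 at 1 h, 1.57 ± 0.11 at 2 h and 0.959 ± 0.035 at 4 h. The ratio of pho84 to tgp1 was 23.1 ± 2.2, 10.5 ± 0.3, 9.97 ± 0.87 and 6.10 ± 0.05 in the wild type at 0, 1, 2 and 4 h and 1.38 ± 0.01, 2.33 ± 0.06 and 2.81 ± 0.14 in HASX. These 4 ratios did not overlap between the genotypes, but the other 2 did. The ratio of pho1 to pho842 was 16.3 to 17.3 in the wild type at 4 h, within the 15.1 to 28.9 of HASX at 1 h and above the 12.9 to 13.8 of HASX at 4 h. At matched times the pho1 to pho842 ratio did not overlap. The wild type had 5.54 to 6.22 at 1 h and 10.4 to 11.6 at 2 h, where HASX had 21.5 to 26.2. HASX was thus above the wild type at 1 h and 2 h and below it at 4 h. The ratio of pho84 to pho842 was 2.64 to 2.84 in the wild type at 1 h and 2.64 to 2.72 in HASX at 4 h. At matched times it overlapped at 1 h (2.63 to 4.84 in HASX). It was lower in HASX without overlap at 2 h (3.39 to 4.01 against 4.89 to 5.05) and at 4 h (wild type 4.74 to 4.77). In HASX 4 h replicates 1 and 2 the ratios were 12.9 and 14.1 for pho1 to tgp1, 4.90 and 4.86 for pho1 to pho84, and 0.999 and 0.937 for tgp1 to pho842.

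**Figure D3:**
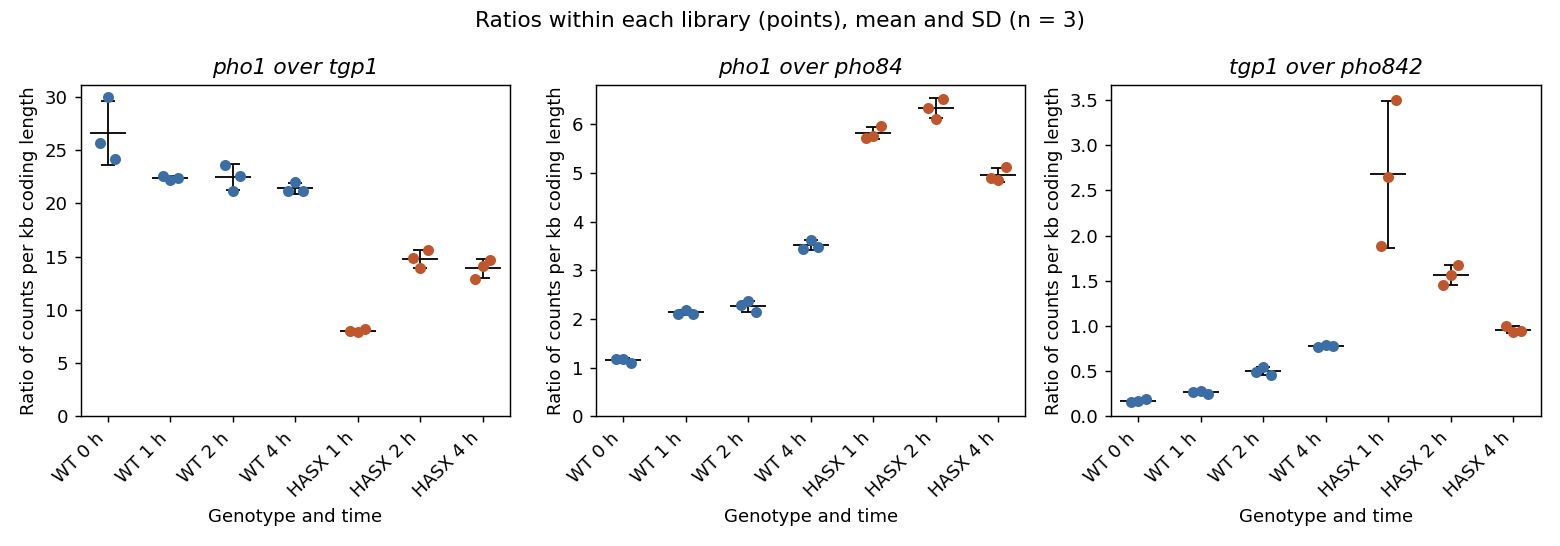
Ratios of counts per kb of coding length within each library (points), with the mean and SD of 3 replicates as bars; blue is the wild type and orange is HASX. The pho1 to tgp1 ratio stays between 21.1 and 30.0 in the 12 wild-type libraries and between 7.90 and 15.6 in the 9 HASX libraries.

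The non-coding RNAs next to these genes were counted at low levels. All 3 named here have annotated spans that overlap the gene in question, so reads of gene and RNA may be mixed, since the strand setting of the counting is not given in the sources used here. The RNA between pho84 and pho1, called nc-pho1 or prt (SPNCRNA.1712), had 1.90, 1.49 and 1.36 CPM in replete wild-type cells and 7.04, 5.28 and 6.42 CPM in HASX at 1 h. The wild type at 1 h had 1.13 ± 0.08 CPM (SD, n = 3). Against it, nc-pho1 was higher in HASX at 1 h with a log2 value of 2.46 (adjusted p = 3.1e-08). The later values against the time-matched wild type were 1.59 (adjusted p = 6.94e-06) at 2 h and 0.72 (adjusted p = 0.0107) at 4 h. The last was 0.75 without HASX 4 h replicate 3. The RNA at pho84, prt2 (SPNCRNA.9001), fell in the wild type from 13.0 ± 1.0 CPM at 0 h to 8.95 ± 1.08 CPM at 1 h (log2 -0.54, adjusted p = 0.0321). In HASX it was at 19.5 ± 1.9, 24.7 ± 1.4 and 30.6 ± 3.6 CPM (SD, n = 3), higher than the wild type at each time, with log2 values of 1.12, 1.58 and 1.57, the last being 1.53 without HASX 4 h replicate 3. The pho1 and pho84 mRNAs were higher in the same comparisons.

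At tgp1, the RNA nc-tgp1 (SPNCRNA.1698) stayed between 9.01 and 13.8 CPM in the 12 wild-type libraries. In HASX against the wild type its log2 values of 0.34 at 1 h and 0.12 at 2 h did not pass the test (adjusted p = 0.232 and 0.684). It passed at 4 h (0.69, adjusted p = 0.0206), but not without the library labelled HASX 4 h replicate 3 (0.21, adjusted p = 0.319), where it stood at 25.5 CPM against 11.6 and 10.7 CPM. The neighbouring protein-coding gene SPBC1271.10c, annotated as a transporter, moved opposite to tgp1 in the wild type, from 88.4 ± 8.4 CPM at 0 h to 22.2 ± 0.3 CPM at 4 h (log2 -1.99, adjusted p = 0.000212). It was also lower in HASX than in the wild type at 1 h (-1.23, adjusted p = 0.00554), lower at 2 h by a smaller value (-0.86, adjusted p = 0.0397) and higher at 4 h (1.73), where the value was 0.67 without the library labelled HASX 4 h replicate 3. On the other chromosome, the RNA SPNCRNA.244, 2 annotated genes from pho842, had 0 to 7 counts per library in the wild type and 41 to 236 in HASX. The log2 difference between HASX and the wild type was 4.78 at 1 h, 4.98 at 2 h and 5.24 at 4 h (adjusted p = 1.76e-06, 4.81e-07 and 1.64e-07). Without HASX 4 h replicate 3 the last was 4.84. Its annotated span does not overlap pho842.

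Among 8 other genes of phosphate transport and polyphosphate, 5 were higher and 1 lower in the wild type at 4 h against 0 h, with a list median of 1.22 beside 0.01 for all genes. The phosphate transporter gene pho841 rose from 119, 122 and 149 CPM to 451, 510 and 464 CPM (log2 1.87, adjusted p = 3e-10). The SPX-domain gene spx2 rose with a log2 fold change of 1.75 and nrf1, which codes for a subunit of the vacuolar polyphosphate polymerase complex, with 1.38. In that comparison 26.5% of all genes were called higher and 25.0% lower. In HASX against the wild type 4 were higher and 2 lower at 1 h, and 4 were higher and 4 lower at 2 h and at 4 h, with list medians of 0.24, -0.27 and -0.21 (-0.14 at 4 h without HASX 4 h replicate 3, with the same counts). Over all genes, 36.4%, 37.5% and 38.3% were called higher and 37.8%, 39.3% and 37.3% lower in HASX at the 3 times. The largest difference in the list was that of pho841, at 2409, 2933 and 2976 CPM in HASX at 1 h, 13.8-fold above the wild type (log2 3.79, SE 0.13, adjusted p = 2.33e-15). It remained higher at 2 h (3.87) and 4 h (3.47, and 3.60 without the library labelled HASX 4 h replicate 3). The values of pho84 and pho842 at 1 h were 1.06 and 0.70. Genes lower in HASX at 1 h were erd1, which codes for an EXS-domain protein (-1.83), and ppx1, an exopolyphosphatase gene (-1.73). Genes of the list could move apart between the genotypes: spx2 and vtc2 rose in the wild type yet were lower in HASX at 4 h (-1.11 and -1.16), while vtc4, the polymerase subunit gene, was higher (0.71). Without HASX 4 h replicate 3 these were -1.01, -1.04 and 0.80. The ppn1 gene of the list, higher in HASX at 1 h (0.92), is annotated in this species as part of the cleavage and polyadenylation machinery, not as a polyphosphatase.

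The genes listed under glycerophosphodiester and phospholipid turnover were counted over 7 tested members. In the wild type, 5 of the 7 were higher at 4 h than at 0 h: pgc1 (log2 1.77), gde1 (1.56) and plb5 (1.00) led, where 26.5% of all genes were called higher. In HASX 6 of the 7 were higher than the wild type at 1 h, with a list median of 1.22 beside -0.01 for all genes, and 5 were higher and 2 lower at 2 h and at 4 h, the latter also without HASX 4 h replicate 3. The shares of all genes called higher were 36.4%, 37.5% and 38.3%. The phospholipase B gene plb5 stood at 10.1, 9.73 and 10.4 CPM in the wild type and at 156, 168 and 155 CPM in HASX at 1 h (log2 3.98, adjusted p = 3.41e-16). The glycerophosphodiesterase gene gde1 stood at 76.0, 77.8 and 79.9 CPM in the wild type and at 433, 441 and 437 CPM in HASX (2.49, adjusted p = 5.6e-13). At 4 h the values were 2.69 for plb5 and 1.13 for gde1, and 2.81 and 1.25 without the library labelled HASX 4 h replicate 3. The genes plb2 and plb3 were lower in HASX at 2 h (-0.86 and -0.60) and at 4 h (-0.58 and -0.49, or -0.48 and -0.36 without HASX 4 h replicate 3).

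Of 4 other phosphatase genes, 3 were higher in the wild type at 4 h than at 0 h, and 3 were higher and 1 lower in HASX at 1 h. Of all genes, 26.5% were called higher in the first comparison, and 36.4% higher and 37.8% lower in the second. In HASX 1 was higher and 1 lower at 2 h, and 1 was higher and 3 lower at 4 h. The counts at 4 h were the same without HASX 4 h replicate 3. Over all genes, 37.5% were called higher and 39.3% lower at 2 h, and 38.3% and 37.3% at 4 h. The vacuolar alkaline phosphatase gene pho8 was higher in HASX at 1, 2 and 4 h (log2 0.89, 0.63 and 0.57, the last 0.68 without HASX 4 h replicate 3). The gene of the other secreted acid phosphatase, pho4, which thiamine is known to repress, was lower at all 3 times, from -1.22 at 1 h to -0.67 at 4 h (-0.55 without HASX 4 h replicate 3), so that the 2 acid phosphatase genes pho1 and pho4 differed in direction. Of 7 genes listed as regulators, 4 were called in HASX at 1 h, all lower, where 37.8% of all genes were lower. Of these, 3 are the genes deleted in HASX. The other was aps3 (SPAC30D11.05, log2 -0.40), whose place in the list as a regulator was not checked. The gene of the transcription factor Pho7 gave a value of 0.18 at 1 h (adjusted p = 0.181) and of 0.05 at 4 h (adjusted p = 0.694, and 0.18 with adjusted p = 0.13 without HASX 4 h replicate 3), and it was lower in HASX at 2 h (-0.61, adjusted p = 0.000138). Of the 7 regulators, 2 were higher and 5 lower in HASX at 2 h (37.5% and 39.3% of all genes). At 4 h 1 was higher and 4 lower (38.3% and 37.3%), also without HASX 4 h replicate 3. In the wild type, csk1, which codes for a kinase known to repress pho1, was the 1 regulator called at 4 h (-0.51, adjusted p = 0.0173). At 2 h csk1 had means of 14.2 CPM in HASX and 10.7 CPM in the wild type. Without HASX 4 h replicate 3, csk1 was higher in HASX at 4 h (log2 0.45, adjusted p = 0.0294).

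**Figure D4:**
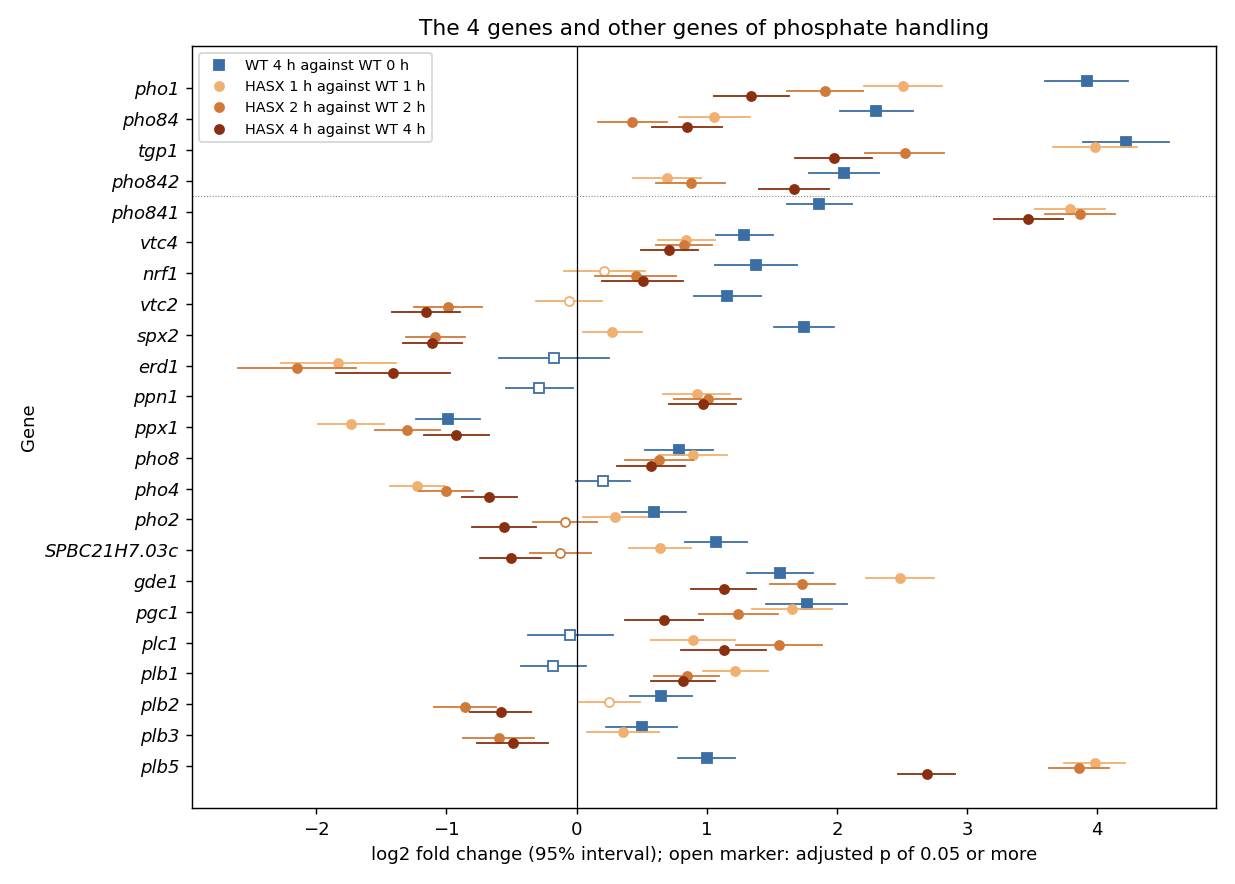
Log2 fold changes with 95% intervals of the 4 genes (top) and of the other genes of phosphate transport, phosphatases and phospholipid turnover, for the wild type at 4 h against 0 h (squares) and for HASX against the wild type at 1, 2 and 4 h (circles). Open markers did not pass an adjusted p of 0.05; pho841 and plb5 lie at 3.79 and 3.98 in HASX at 1 h.

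The 4 genes followed one another across the wild-type libraries more closely than across HASX for the pairs with tgp1. Pearson's r of log2 CPM between pho1 and tgp1 was 0.999 over the 12 wild-type libraries and 0.273 over the 9 HASX libraries. Between pho1 and pho84 it was 0.992 and 0.972, and between pho1 and pho842 it was 0.947 and 0.843. Over the 8 HASX libraries without 4 h replicate 3, the 3 values were 0.297, 0.970 and 0.826. Libraries of a group share medium, time and scaling, so these are descriptions and not tests. The ranges also differ: group means of tgp1 ran from 53.8 to 1004 CPM in the wild type, which includes 0 h, and from 2605 to 4067 CPM in HASX. Pearson's r depends on the range covered, so the values of the 2 genotypes are not a like-for-like comparison. Over all 21 libraries and 3246 other protein-coding genes with enough signal, vtc4 was among the 3 genes most like pho1 (r = 0.974), pho84 (r = 0.962) and pho842 (r = 0.933). Its mean level went from 196 CPM in replete wild-type cells to 479 CPM at 4 h, and was 494, 608 and 785 CPM in HASX. The genes most like tgp1 were SPAC27D7.09c, sdu1 and ecl3 (r = 0.980, 0.980 and 0.979), and the others most like pho1 were SPAC15E1.02c and gst2 (r = 0.976 each). For pho84 the other 2 were pof15 (0.962) and isn1 (0.953), and for pho842 they were SPBC685.03 (0.943) and cox8 (0.934). The choice of these genes depended on the library and the measure. Without HASX 4 h replicate 3, vtc4 ranked 4 for pho1, ecl3 ranked 4 for tgp1 and cox8 ranked 4 for pho842. By Spearman's rho over the 3246 genes, vtc4 ranked 9.5 for pho1, 13.5 for pho84 and 156.5 for pho842. SPAC15E1.02c ranked 284.5 and gst2 231 for pho1, and SPAC27D7.09c, sdu1 and ecl3 ranked 194.5, 116 and 167.5 for tgp1. For pho84, pof15 ranked 16.5 and isn1 11, and for pho842, SPBC685.03 ranked 8 and cox8 69.5.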

How the data were processed

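The members, gene lists and tests were chosen with earlier results of these data known. The deposited files hold integer counts per gene and library. The processing notes of the submitters name build ASM294v2, DESeq2, HTSeq 0.10.0, SAMtools and HISAT2 2.1.0, with no role or setting. The authors' tables against the wild type at 0 h give log2 fold changes, p-values and group means as a normalized signal, per the file headers. These were used only for the comparison with the counts under the other observations.

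Counts were fitted in R 4.3.3 with edgeR 4.0.16 (filterByExpr, TMM, quasi-likelihood, 1 mean per group over 21 libraries). The filter kept 6234 genes and removed 754. There were 14 residual degrees of freedom, and the common biological coefficient of variation was 0.212. A call is a Benjamini-Hochberg adjusted p under 0.05 over all genes tested; no fold threshold was set. Intervals are 95% intervals from the fit. A run on simulated counts, with few genes changed, checked the code and not the scaling or spread in these data. Log2 CPM for correlations used a prior count of 2.

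Identifiers were matched to RefSeq ASM294v3 for names, gene order, overlap of spans and coding length, so no coordinates or sequences are given. A locus tag was found for 6836 of the 6988 identifiers, a synonym for 12 and no match for 140. Named genes are the 4 members, measured genes within 2 places of them with the named upstream RNAs, up to 3 called genes per list by size of change, and the 3 protein-coding genes most like each member (mean of at least 10 CPM and a range of group means of at least 1 on the log2 scale). Outside this rule, pho8, pho7, csk1, aps3, vtc2, vtc4, ppn1, plb2, plb3 and the mating-type genes were also named after their values were seen. The replicate numbers were not treated as pairs. Samples come from separate biological replicates per the labels, which give no batch.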

Additional observations from a re-analysis of the deposited data

Results flagged for a closer look

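In 6 cases the change between 2 times differed between HASX and the wild type by a direct test of the difference (edgeR interaction, adjusted over all genes). From 1 h to 2 h the difference on the log2 scale was -0.60 for pho1, -0.63 for pho84 and -1.46 for tgp1. From 2 h to 4 h it was -0.57 for pho1, -0.55 for tgp1 and 0.80 for pho842. The calls of pho1 at both steps and of tgp1 from 2 h to 4 h were lost when single libraries were left out, as given above.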

How the results depend on the processing

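Of 56 changes tested for the 4 genes, 48 kept their call under every alternative and 8 changed it under at least 1; none of 820 recomputed values reversed a call. Group levels were recomputed under DESeq2 size factors only, and moved by less than 1 SD in all 28 cases. For the interaction from 2 h to 4 h, DESeq2 size factors gave -0.50 for pho1 and -0.48 for tgp1, neither called. In the same interaction the DESeq2 Wald test (1.42.0) called pho84 (0.49) and lost tgp1 (-0.48), and a fit of only the groups compared called pho84 (0.41). For HASX at 1 h against the wild type at 4 h, no filter on low counts lost pho842 (0.29). Library totals, added after seeing the data, called pho84 lower there (-0.27), lost pho842 (0.16) and lost the pho842 interaction from 2 h to 4 h (0.36). Leaving out 1 replicate at a time gave ranges of -0.70 to -0.48 for the pho1 interaction from 1 h to 2 h, and of -0.69 to -0.46, 0.30 to 0.50 and -0.71 to -0.44 for pho1, pho84 and tgp1 from 2 h to 4 h. It gave 0.37 to 0.55 for pho84 in the wild type from 2 h to 4 h and 0.20 to 0.43 for pho842 in HASX at 1 h against the wild type at 4 h. The cause of these changes was not tested. Libraries with the same replicate number deviated together in 6 of 36 pairs (r over 0.1; range -0.66 to 0.42) and in no comparison in every pair; in 1 of 12 comparisons every library correlated best with its own number. A replicate block lost the tgp1 interaction from 2 h to 4 h (-0.55, adjusted p = 0.0543) and changed no other call. Counts over all genes depended on single libraries in the wild-type comparisons. At 2 h against 1 h, 357 higher and 43 lower became 838 and 434 without wild-type 2 h replicate 3. They became 614 and 107 without HASX 4 h replicate 3, which enters that comparison only through the shared fit and scaling. The lowest count of a member in a library was 930, so depth does not limit these levels, and 3 replicates do.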

Other observations

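The authors' deposited tables hold, for each starved group, a log2 fold change against the wild type at 0 h and the mean of each group. In 5 of the 6 deposited tables the fold change equalled the log2 ratio of the table's own means within 0.1 for every gene with both means above 50. In the deposited table for HASX at 4 h, it differed by more than 0.1 for 3506 of 5161 such genes. For pho1 the authors' deposited table gives 4.86 where its own means give 5.37. The authors' deposited values in that table are 3.90 against 3.26 for pho84, 6.06 against 6.30 for tgp1, and 4.14 against 3.83 for pho842. In the authors' deposited table for HASX at 1 h, by contrast, both are 4.59 for pho1 and 6.30 for tgp1. The origin of the difference was not tested, and the values in the report come from the deposited counts.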
